A study of Rattus norvegicus with 2 samples.

Results

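Cochlear macrophages were the cells of the rat cochlear duct that carried the RNA of macrophage marker genes in single-cell libraries of P1 and P7 pups. The cells were chosen by measured values, and a barcode was taken as a macrophage where at least 1 UMI was counted for 4 or more of the 6 genes Lyz2, C1qa, C1qb, C1qc, Csf1r and Tyrobp, among barcodes with over 500 and under 5000 detected genes and under 25% of UMIs on mitochondrial genes. A UMI is a molecular tag that marks 1 captured RNA molecule. In all, 313 of 25360 kept cells met the rule, 141 of 12779 at P1 and 172 of 12581 at P7. The animals were Sprague-Dawley rats, male and/or female by the Methods, with no transgene, mutation or treatment in either group, and each age was 1 library from a pool of 40 rats at postnatal day 1 or 7. The stria vascularis, spiral ligament and spiral ganglion were separated from the duct by dissection, red cells were lysed, dead cells were removed with magnetic beads, and cells were captured with the 10x 3' V3 kit, with no sort for immune cells. GEO's labels give greater epithelial ridge cell as the cell type of both libraries, which goes against the macrophage markers these cells carried. With 1 library per age there was no test between the ages, and every interval below is at the 95% level and covers counting error only.

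Tissue macrophages are phagocytes of the innate immune system that clear dying cells and debris, present antigen and secrete chemokines and growth factors. They depend on signals through the CSF1 receptor and on the transcription factor PU.1, and they settle in most organs before birth, with later input from blood monocytes. In the cochlea they are found along the nerve, in the lateral wall and beneath the sensory epithelium, and they are known to be abundant while the tissue is remodelled after birth. Resident tissue macrophages often carry scavenger receptors such as Mrc1, Lyve1 and Cd163, whereas MHC class II molecules mark the cells that present peptide antigen to helper T cells.

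The summed depth of the macrophages was 1232756 UMIs at P1, against 1414461 at P7. The median macrophage had 7831 UMIs, 8.04% of them mitochondrial, at P1, and 7272 with 10.6% mitochondrial at P7. No barcode sequence was shared by macrophages of both libraries, although 60 sequences occurred in both libraries over all barcodes, 2 of them in P1 macrophages. Doublets were kept, and Scrublet called 23 of the 141 macrophages at P1 (16.3%) and 21 of the 172 at P7 (12.2%), against 5.29% and 6.38% of all kept cells.

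The marker rule split the cells at a sparse zone. At P1 the kept cells with 0 to 6 of the marker genes numbered 12083, 495, 40, 20, 7, 9 and 125. At P7 the same counts were 9948, 2193, 229, 39, 11, 21 and 140. Most members carried all 6 genes in both libraries, and the fewest cells carried 4.

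**Figure D1:**
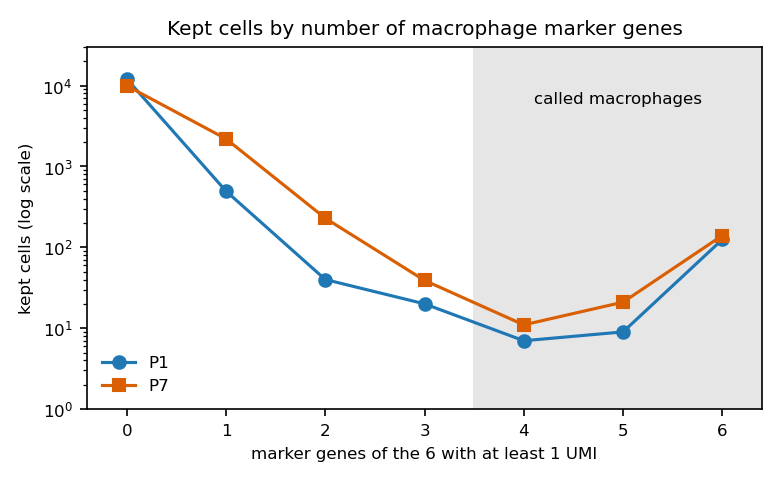
Number of kept cells (log scale) against the number of the 6 macrophage marker genes with at least 1 UMI, at P1 (circles) and P7 (squares). Counts fall to 7 and 11 cells at 4 genes and climb again to 125 and 140 at 6 genes, and the shaded range holds the cells called macrophages.

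The cells on either side of the threshold differed between the libraries in their counts of S100a9 and Cd74, which is given here as a description. The 7 members at P1 with 4 genes held 31 UMIs of C1qa and 0 of S100a9, a gene of the list of neutrophil markers used below. The 20 cells at P1 with 3 genes held 5 UMIs of C1qa, 438 of Tyrobp and 263 of S100a9, the last in 4 cells. The 40 with 2 genes held 9495 of S100a9 in 17 cells, and 362 of Cd74, the invariant chain of MHC class II, in 4. At P7 the 11 members with 4 genes held 15 UMIs of C1qa, and 46 of Cd74 that all lay in 1 cell. The 39 cells with 3 genes held 28 of C1qa, 281 of Tyrobp and 618 of Cd74. The 229 with 2 genes held 360 of S100a9 in 6 cells and 62 of Cd74 in 4. In the cells just outside the rule C1qa was low in both libraries. As C1qa is a gene of the rule, this follows in part from the choice of cells. S100a9 and Cd74 lay in a minority of these cells, with Cd74 in 6 of the 39 at P7.

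The marker genes themselves chose the cells, so their values describe the members only. The C1q chains open the classical complement cascade, and C1qb was their highest member at P1, with 7131 CPM (UMIs per 1000000 UMIs of the macrophages of a library) against 2354 at P7. C1qa was counted at 5090.2 and 2214 CPM, and C1qc at 5482 and 2482. Tyrobp, the adaptor of activating immune receptors, had 3411 CPM at P1 and 2402 at P7. Lyz2, the lysozyme of myeloid cells, had 2116 and 3716 CPM. Csf1r, the receptor for the macrophage growth factor CSF1, was nearly level at 1112 and 1132 CPM. Among other cells, defined as kept cells with at most 1 of the 6 genes, a UMI of C1qa was found in 0.596% at P1 and 3.23% at P7, and the highest share of any marker gene was 1.05% for C1qb at P1 and 3.75% for C1qc at P7.

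The label was checked against markers that the rule had not used. Of the 25 measured genes of a macrophage identity list, Aif1, the calcium-binding protein IBA1, had 2768 CPM in macrophages against 0.977 in other cells at P1, and 2326 against 6.39 at P7. Spi1, which encodes PU.1, had 306 and 255 CPM in macrophages and 0.135 and 0.515 in other cells. Ptprc, the leukocyte antigen CD45, had 117 and 99.7 CPM in macrophages and 0.239 and 0.370 in other cells. Ctsb, the lysosomal protease cathepsin B, was lower in contrast, at 2276 CPM against 217 at P1 and 1393 against 211 at P7. The exception in the list was Cd48, with 150.1 CPM in macrophages and 149.8 in other cells at P1 and 377 against 409 at P7. By number of marker genes, the list summed at P1 to 13044 CPM in members with 6, 11777 with 5 and 3306 with 4. At P7 the sums were 12069, 4489.5 and 2934 CPM. Kept cells with 3 genes, which are not members, had 6286 CPM at P1 and 3277 at P7. Members with 4 genes were thus below them on this list, and the label rests mainly on the members with 6.

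Many defining markers of other white blood cells were at or near 0 in the macrophages, although the sums of their lists were not all low. Of 15 neutrophil genes 8 had no UMI in either library. The list summed to 10.5 CPM at P1 and 41.7 at P7, 110% and 391% of its level in other cells, and 48 of its 59 UMIs at P7 were of Fcnb. S100a8 had 2 UMIs at P1 and 0 at P7, and S100a9 had 0 and 2, where a count of 0 allows up to 2.43 CPM at P1 and 2.12 at P7. Cd3e and Cd3d of T cells, Ms4a1 of B cells and Cpa3 of mast cells had 0 UMIs in both libraries. Other members of their lists had UMIs. The list of T and natural killer cells summed to 9.73 CPM at P1 and 8.48 at P7, 279% and 268% of its level in other cells. The B cell list summed to 40.6 and 66.5 CPM (20.1% and 48.6%) and the mast cell list to 5.68 and 35.3 (17.1% and 35.6%). The dendritic cell list summed to 13.8 and 18.4 CPM (75.1% and 153%). Of the genes of conventional dendritic cells, Xcr1, Clec9a and Ccr7 had 0 UMIs in both libraries, Flt3 had 1 UMI in each, and Itgax, which macrophages can also express, had 10 and 15. The 11 osteoclast genes summed to 221 CPM at P1 and 166 at P7, against 264 and 318 in other cells. Calcr, Ocstamp and Dcstamp had 0 UMIs in both libraries. The protease gene Ctsk (89 and 115 UMIs), the acid phosphatase gene Acp5 (45 and 39) and Tnfrsf11a, the RANK receptor gene (39 and 59), made up most of the sum, and 32 UMIs of Mmp9 and 48 of Atp6v0d2 at P1 lay in 3 cells each, against 0 and 1 at P7. Tnfrsf11a was above its level in other cells, at 31.6 and 41.7 CPM against 3.61 and 1.92, and Ctsk was below it, at 72.2 and 81.3 CPM against 242 and 291. The 8 erythroid genes summed to 1386 and 3552 CPM, 177% and 235% of their level in other cells, most of it haemoglobin RNA of a few cells described below.

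Against the other cells of the same library, 300 of 2454 genes at P1 (12.2%) and 233 of 2683 at P7 (8.68%) were at least 4-fold higher in macrophages, of the genes outside the rule with at least 50 CPM there. In both libraries the count was 204 of 2187 genes (9.33%). With the 6 marker genes these made up 12.4% of macrophage UMIs at P1 and 9.55% at P7, and 0.765% and 1.05% of the UMIs of other cells. The 204 genes were chosen by this contrast and the 6 chose the cells, so these shares are a description only.

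The 25 genes with the largest contrast in the library where it was smaller fell into a few families of myeloid genes. Receptors and adaptors for antibody and for myeloid ligands were Fcgr1a, Fcgr3a, Fcer1g, Trem2, Clec4a1, Hcst, C5ar1 and the UDP receptor P2ry6. Fcer1g, the common signalling chain of Fc receptors, had the highest level, with 2320.0 CPM at P1 and 1490 at P7 against 1.85 and 3.26 in other cells. Chemokines were Ccl3, Ccl4, Ccl6 and Ccl12. Ccl12 rested on 14 cells at P1 and 15 at P7, 1 of which held 39.2% of its P7 UMIs. The other genes included Spi1, the catalytic subunit of the phagocyte oxidase Cybb, the nucleic acid exonuclease Pld4, the survival factor Bcl2a1, the costimulatory ligand Cd86, Tnfaip8l2, Arl11, Lst1, Glipr1, the MHC class II gene RT1-Da, and AABR07038983, RGD1559482 and LOC100911825, which have no gene name. Their log2 ratios to other cells lay between 8.54 for C5ar1 and 9.96 for Ccl12 at P7. At P1 the ratios were larger for all but Glipr1, Cd86 and RT1-Da, but some of them, such as those of Fcgr3a and Bcl2a1, rested on 1 UMI in 12578 other cells, and no order was read from them.

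**Figure D2:**
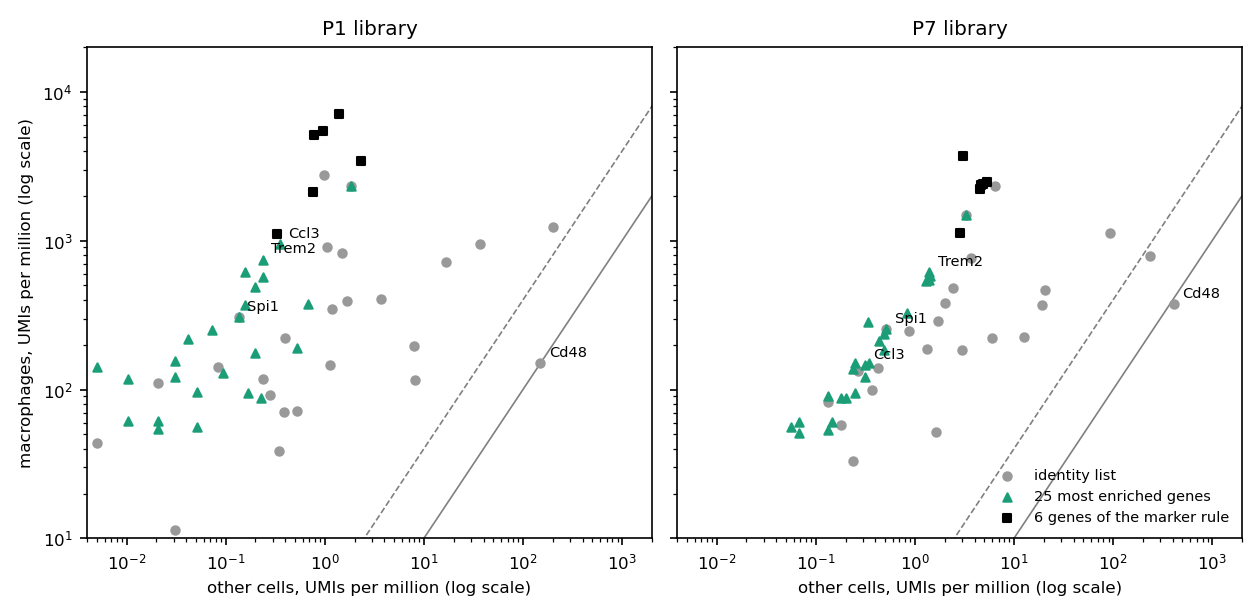
Level in macrophages against level in other cells of the same library, both in CPM on log scales, for the identity list (circles), the 25 most enriched genes (triangles) and the 6 genes of the rule (squares). The solid line marks equal levels and the dashed line a 4-fold higher level in macrophages, genes without a UMI in other cells are drawn at 0.005, and Cd48 lies on the line of equal levels.

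Since Spi1 was among these genes, their promoters were searched for the PU.1 core GAGGAAGT, and Fcgr3a and Bcl2a1 are shown because their upstream sequences hold it. The sequences are the 250 bases before the start site in the RefSeq annotation of the assembly GRCr8, which is not the rn6 build of the counts, written 5′ to 3′ on the gene's strand, and capitals mark the motif or its reverse complement ACTTCCTC. The Fcgr3a promoter lies at chr13:85782386-85782635 on the + strand, with the motif starting 56 bases before the start. The Bcl2a1 promoter lies at chr8:98596556-98596805 on the + strand, with the motif starting 215 bases before the start.
Fcgr3a: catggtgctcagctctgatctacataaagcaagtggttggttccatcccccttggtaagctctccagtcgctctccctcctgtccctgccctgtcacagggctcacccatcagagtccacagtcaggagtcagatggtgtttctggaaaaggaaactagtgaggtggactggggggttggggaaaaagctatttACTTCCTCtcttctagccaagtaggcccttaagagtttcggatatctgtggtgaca
Bcl2a1: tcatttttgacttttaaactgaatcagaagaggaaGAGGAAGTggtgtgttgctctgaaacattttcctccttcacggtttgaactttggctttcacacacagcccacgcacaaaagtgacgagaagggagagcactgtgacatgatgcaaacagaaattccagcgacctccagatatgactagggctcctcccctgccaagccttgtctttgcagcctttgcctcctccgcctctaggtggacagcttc

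Of the 31 genes of the rule and of the enriched set, 16 had a promoter under their symbol, and 2 of these (12.5%) held GAGGAAGT on either strand, against 683 of 33469 promoters in all (2.04%). The shorter GAGGAA, which the longer motif contains and which was chosen after the first search, was found in 11 of the 16 (68.8%), against 23.3% of all promoters. The 11 were Bcl2a1, C1qb, Ccl12, Cd86, Clec4a1, Csf1r, Cybb, Fcgr3a, Lyz2, Tnfaip8l2 and Trem2. A match of letters is a description of the window and not a bound site.

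RNA of other cell classes was present in the macrophage barcodes and differed between the libraries. The summed level of 16 mesenchymal genes was 18.6% of the level in other cells at P1 and 38.0% at P7, with 0 of 16 above the level of other cells in either library. For 12 glial genes the level was 36.8% and 35.3% of that of other cells, and its log2 ratio of P7 to P1 was 1.38 in macrophages and 1.44 in other cells. Otor, the most abundant mesenchymal gene, had a median of 141 CPM per macrophage at P1 (0 to 16519) and 348 at P7 (0 to 24823). Cells with at least 3 UMIs for each of 3 or more genes of 1 such class, called mixed cells here, numbered 30 of 141 at P1 (21.3%) and 71 of 172 at P7 (41.3%). Mixed cells had a median of 12592 UMIs at P1 and 10552 at P7, against 7141 and 6037 in the others. These values stand beside every ratio of P7 to P1 that follows, and their part in it was not tested beyond the counts without mixed cells.

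**Figure D3:**
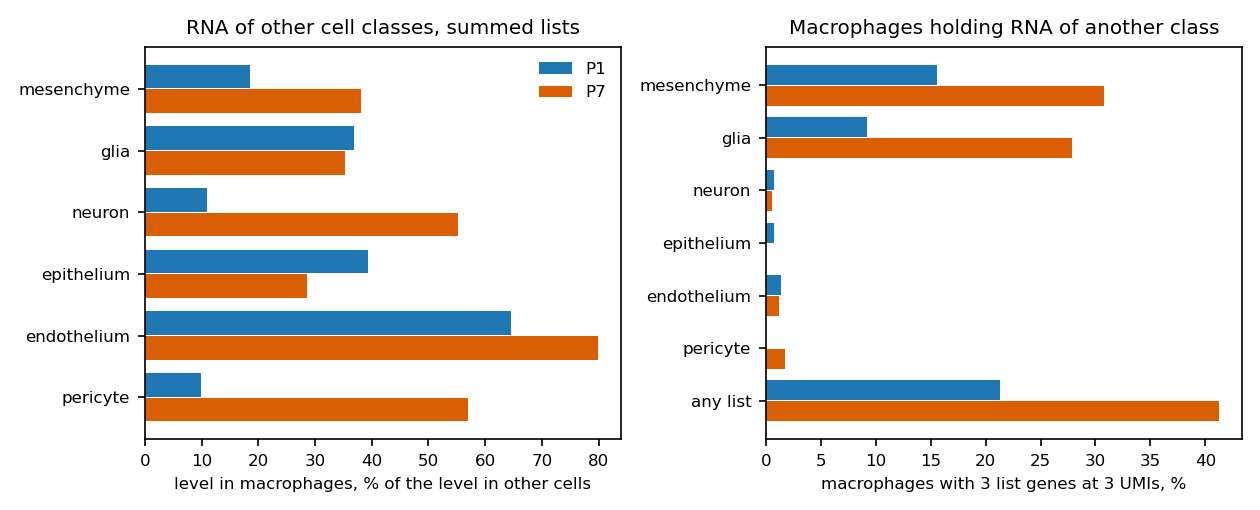
Left, summed level of 6 lists of other cell classes in macrophages as a percentage of their level in the other cells of the same library, at P1 (blue) and P7 (orange). Right, percentage of macrophages with at least 3 UMIs for each of 3 or more genes of a list, which was 21.3% at P1 and 41.3% at P7 over the 6 lists, most of them through the mesenchyme and glia lists.

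Macrophages made up 1.10% of kept cells at P1 (0.930 to 1.30) and 1.37% at P7 (1.17 to 1.59), a log2 ratio of 0.31 (-0.02 to 0.64). The counting interval of this ratio included 0. It did not without called doublets (0.40, 0.04 to 0.75), with 3 marker genes required (0.41, 0.11 to 0.72) or without the upper gene limit (0.35, 0.02 to 0.68). It did with 5 marker genes required (0.29, -0.05 to 0.63) and without mixed cells (-0.11, -0.51 to 0.29). Limits on the barcodes moved this value: the log2 ratio was 0.69 (0.38 to 1.00) without the mitochondrial limit and -0.49 (-0.94 to -0.05) with a limit of 10%.

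Between the ages, 301 of 2956 genes with at least 50 CPM and 20 UMIs in either library were at least 2-fold higher at P7 (10.2%) and 144 at least 2-fold lower (4.87%). The median log2 ratio over all of them was 0.02. Without mixed cells the counts were 187 higher and 172 lower, and scaled to the sum of the 204 macrophage-enriched genes, which shifts every log2 ratio by 0.29, they were 488 higher and 74 lower. Of the tested genes, 1421 were at least as high in macrophages as in other cells. This was judged only in the library with the higher macrophage level. Of the 1421, 69 were higher at P7 (4.86%) and 112 lower (7.88%), a description of a set chosen partly by the same values. Over the 204 macrophage-enriched genes, 5 were higher at P7 (2.45%) and 18 lower (8.82%), with a median log2 ratio of -0.09. In what follows a gene is called higher or lower only past this 2-fold limit.

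Chemokines and cytokines, with which macrophages recruit other leukocytes, held many of the largest falls. Of 19 genes of the list that passed the minimum level, 8 were lower at P7, beside 4.87% of all tested genes, and 0 were higher, and the median log2 ratio was -0.82. The sum of the list went from 7457 to 3400 CPM (log2 ratio -1.13, -1.18 to -1.08), whereas in other cells its log2 ratio was -0.07. Among genes at least as high in macrophages as in other cells at P1, the 10 largest falls held 5 members of this list. These were Cxcl1, Cxcl2, Il1b, Ccl2 and Ccl4.

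Cxcl2, a neutrophil attractant, had 579 CPM at P1 (537 to 623) and 21.2 at P7 (14.3 to 30.3), a log2 ratio of -4.77 (-5.35 to -4.24). Once each cell was thinned to 2000 UMIs it was found in 66 of 138 macrophages at P1 (47.8%) and 6 of 161 at P7 (3.73%), against 0.0405% and 0.0175% of other cells. Without thinning, 87 of 141 and 17 of 172 macrophages had a UMI. Its fall thus showed both in the summed level and in the number of cells.

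Cxcl1, the related neutrophil attractant, fell from 215 to 2.83 CPM (log2 ratio -6.25, -8.13 to -4.87), and it fell in other cells as well, with a log2 ratio of -3.64. The inflammatory cytokine gene Il1b went from 140 CPM in 46 cells to 6.36 CPM in 7 cells (log2 ratio -4.45). Ccl2 and Ccl7, which attract monocytes, had log2 ratios of -3.21 (-3.56 to -2.89) and -2.49 (-2.77 to -2.21). Ccl3 and Ccl4, which attract monocytes and lymphocytes, had log2 ratios of -2.69 (-2.91 to -2.48) and -3.02 (-3.36 to -2.69). The eighth, Cxcl16, went from 142 to 65.0 CPM (log2 ratio -1.13), and without mixed cells its log2 ratio was -0.75. For the other 7 the log2 ratio stayed at -2.12 or below under every alternative in which gene ratios were recomputed. The removal of the mitochondrial limit or of all barcode limits was not among these.

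Not all chemokine genes of macrophages moved this way. Ccl6 had 220 CPM at P1 and 211 at P7 (log2 ratio -0.06, -0.30 to 0.18). Pf4, a platelet-type chemokine that resident macrophages express, had 2225 and 1258 CPM (log2 ratio -0.82). The receptor genes Ccr1 and Ifngr1 had log2 ratios of 0.67 and 0.78, neither past 2-fold, but without mixed cells they were higher at P7, at 1.24 and 1.14.

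Immediate-early and stress genes are switched on within minutes of a stimulus, tissue dissociation included. Of 17 tested genes of the list, 11 were lower at P7 and 0 higher, beside 4.87% and 10.2% of all tested genes. The median log2 ratio of the 17 was -1.49. The sum went from 7254 to 2740 CPM in macrophages (log2 ratio -1.40, -1.46 to -1.35), and its log2 ratio was -1.01 in other cells. The count of 11 was unchanged without mixed cells, without called doublets and on the scale of macrophage-enriched genes, and it was 10 with cells weighted equally. Egr1 had 453 and 62.9 CPM in macrophages (log2 ratio -2.85) and a log2 ratio of -2.28 in other cells. Fos had log2 ratios of -1.73 in macrophages and -1.72 in other cells, so the fall of these genes was seen in both.

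Some members fell in macrophages and not past 2-fold in the other cells. Ier3, a target of NF-kB, had log2 ratios of -2.10 (-2.25 to -1.94) in macrophages and -0.17 in other cells. Nfkbia, the inhibitor of NF-kB, had -1.63 (-1.88 to -1.39) and 0.28. The transcription factor gene Egr2, from another list, had 104 CPM at P1 and 14.9 at P7 (log2 ratio -2.81), and 25.5 and 30.8 CPM in other cells. The difference of these ratios between cell classes was not tested. Among the 10 largest falls were also Nfkbiz, another gene of this list (log2 ratio -3.31), and Nfil3 (-3.64), which also fell in other cells, with log2 ratios of -1.95 and -1.33, and the chemokine-binding receptor Ccrl2 (-4.61) and Pla2g7 (-3.79), the platelet-activating factor hydrolase. The last was S100a4 (-3.14), for which 1 cell held 36.5% of the P1 UMIs.

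Resident scavenger genes, a list of receptors and other genes of settled macrophages, were lower at P7 in 6 of 18 tested members and higher in 0. Of all tested genes 4.87% were lower and 10.2% higher. The sum of the list went from 14530 to 8316 CPM (log2 ratio -0.81, -0.84 to -0.77), against a log2 ratio of 0.08 in other cells, and the median log2 ratio of the members was -0.66. Per macrophage, the list had a median of 15824 CPM at P1 (622 to 31703) and 8225 at P7 (0 to 32013), so the ranges of the cells overlapped almost fully. Without mixed cells the count was 3, and on the scale of macrophage-enriched genes it was 4, with 1 gene higher. All these values were measured within the barcode limits. With mitochondrial genes left out of the total, the list had 15819 CPM in the P1 and 9345 in the P7 macrophages. On that scale the 88 P7 barcodes that met the rule outside the limits had 13697 CPM, and the 6 at P1 had 3298.

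Lyve1, a hyaluronan receptor of resident macrophages, had 2146 CPM at P1 (2065 to 2229) and 672 at P7 (630 to 716), a log2 ratio of -1.68 (-1.78 to -1.57). At 2000 UMIs it was found in 110 of 138 macrophages at P1 (79.7%) and 83 of 161 at P7 (51.6%), against 1.56% and 1.84% of other cells, and without thinning in 125 of 141 and 122 of 172. F13a1, the A chain of coagulation factor XIII, had 531 and 99.0 CPM (log2 ratio -2.42, -2.70 to -2.16). Lyve1 and F13a1 were lower in the level and in the share of cells, F13a1 being found at 2000 UMIs in 52.9% and 16.1% of macrophages.

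Cd163, the scavenger receptor for haemoglobin-haptoglobin complexes, had 484 and 194 CPM (log2 ratio -1.32, -1.53 to -1.11), and without mixed cells its log2 ratio was -0.90. The endocytic adaptor gene Dab2 had a log2 ratio of -1.41 in macrophages and -1.01 in other cells. Folr2, a folate receptor of resident macrophages, and the ubiquitin ligase gene Wwp1 lay at -1.03 and -1.11, and both were above -1 without mixed cells. Mrc1, the mannose receptor, had 1751 and 1041 CPM (log2 ratio -0.75), and Clec10a, another lectin, had 1037 and 845 (-0.30), neither past 2-fold. The transcription factor gene Maf (log2 ratio 0.80) was not past it either.

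**Figure D4:**
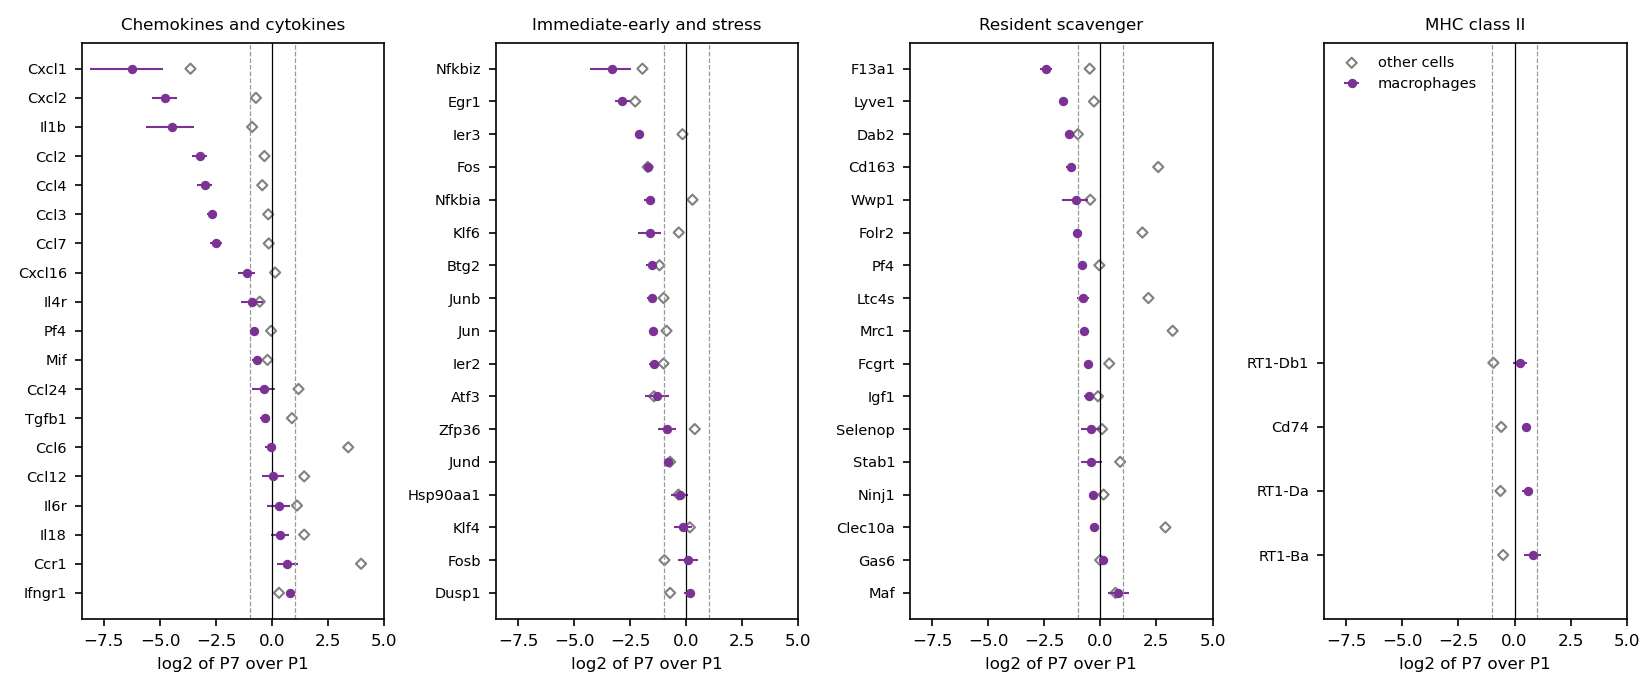
log2 ratio of the P7 to the P1 level in macrophages for the tested genes of 4 lists (filled circles, bars are exact 95% counting intervals) and in other cells (open diamonds), with dashed lines at the 2-fold limits. In macrophages 8 of 19 chemokine and cytokine genes, 11 of 17 immediate-early and stress genes, 6 of 18 scavenger genes and 0 of 4 MHC class II genes lie beyond the lower limit. The share over all tested genes is 4.87%, and 1 scavenger gene within the limits is not drawn.

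Genes of iron and heme handling held abundant members that were lower at P7. Of 11 tested genes 5 were lower and 0 higher, beside 4.87% and 10.2% of all tested genes, and without mixed cells 1 was lower. That was Hmox1, the heme oxygenase that breaks down heme, with 1364 CPM at P1 and 484 at P7 (log2 ratio -1.50, -1.63 to -1.37). Ferritin was among the most abundant RNAs of the cells, with 11938 and 6139 CPM for the heavy chain gene Fth1 (log2 ratio -0.96). Its light chain gene Ftl1 had 8016 and 3953 CPM (log2 ratio -1.02). The iron exporter gene Slc40a1, which encodes ferroportin, had 147 and 182 CPM (log2 ratio 0.31). Of 8 tested complement genes 3 were lower at P7, beside 4.87% of all tested genes. The 3 were C1qa (log2 ratio -1.20), C1qb (-1.60) and C1qc (-1.14), all genes of the rule whose values are a description only. Without mixed cells C1qb alone stayed past 2-fold, at -1.15. None of the other 5, such as C5ar1, the receptor for the complement fragment C5a, was past 2-fold.

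Over the 30 tested lysosomal genes the median log2 ratio was 0.04, with 1 gene higher at P7 and 2 lower, beside 10.2% and 4.87% of all tested genes. The protease gene Ctsc was higher (log2 ratio 1.16), and Ctss (-1.30) and Creg1 (-1.01) were lower, though without mixed cells Ctss was at -0.80 and no lysosomal gene was past the lower limit. The sum had a log2 ratio of -0.15 (-0.18 to -0.13), of which the sign depended on the scaling. Apoe, the lipid carrier and the most abundant of the 26 measured lipid genes, was level at 12803 CPM at P1 and 12726 at P7 (log2 ratio -0.01, -0.04 to 0.02), while its level in other cells went from 1425 to 3290.5 CPM. Of 19 tested lipid genes 3 were higher and 5 lower, beside the same shares of all tested genes. The galectin gene Lgals3 was lower (864 and 216 CPM, log2 interval -2.19 to -1.81), and the scavenger receptor gene Msr1 was as well (-1.69). Apoc1, an apolipoprotein gene (-1.41), and Lpl, the lipoprotein lipase gene (-1.22), were also lower, and without mixed cells Apoc1 was at -0.93. The cholesterol exporter gene Abcg1 was higher (22.7 and 69.3 CPM, log2 ratio 1.61), as were the lipoprotein receptor gene Lrp1 (1.34) and the tetraspanin gene Cd9 (1.51), neither of which was past 2-fold without mixed cells. Spp1 had a log2 ratio of -1.85 that rested on 1 cell with 78.8% of its P1 UMIs.

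In the identity list 2 of 23 tested genes were higher at P7, beside 10.2% of all tested genes, the tetraspan gene Ms4a7 with 72.2 and 183 CPM (log2 ratio 1.34, 0.99 to 1.71) and Cd48 (1.33), which other cells expressed at the same level, and 1 was lower, Ctss. The counts moved with the cells and the scale, and were 6 higher and 0 lower without mixed cells and 5 higher and 1 lower on the scale of macrophage-enriched genes. The pattern receptor gene Tlr2 went from 26.0 to 77.8 CPM (log2 ratio 1.58, 1.00 to 2.20). Cx3cr1, the fractalkine receptor gene used as a marker of resident phagocytes, had 43.8 and 82.0 CPM (log2 ratio 0.90, 0.43 to 1.40), and Csf1r had a log2 ratio of 0.03. At 2000 UMIs, Ms4a7 was found in 13.8% and 32.9% of macrophages, and in 0.122% and 0.489% of other cells.

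The 10 largest rises among genes at least as high in macrophages as in other cells at P7 were mostly shared, since all but Vldlr and Gadd45g were also at least 2-fold higher at P7 in other cells. Vldlr, a lipoprotein receptor gene, had 11.4 CPM in 14 cells at P1 and 73.5 CPM in 64 cells at P7 (log2 ratio 2.69, 1.88 to 3.62), and a log2 ratio of 0.75 in other cells. Gadd45g, a growth arrest gene, had 30.0 and 136 CPM (log2 ratio 2.18) and a log2 ratio of 0.23 in other cells. At P1 both were below their level in other cells, with log2 ratios of macrophages to other cells of -0.63 for Vldlr and -1.07 for Gadd45g, as were Clec2l (-0.13) and Ppp4c (-0.11). Clec2l, Ppp4c, Cdkn2c, Bcl10 and LOC100360791 had log2 ratios of 1.91 to 2.71 in macrophages and 1.39 to 2.59 in other cells. The remaining 3, Hbb, LOC689064 and LOC103694857, rested on few cells, since 1 cell held 94.9% to 97.4% of their UMIs at P1 and 1 cell 47.4% to 60.7% at P7. The haemoglobin gene Hba-a2 was likewise held by 1 cell at P1, with 1525 of 1572 UMIs, and by 2 at P7, with 2316 and 1809 of 4368.

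The shares of dividing macrophages had overlapping counting intervals at the 2 ages. At 2000 UMIs, at least 2 UMIs of 19 G2/M genes were found in 16 of 138 macrophages at P1 (11.6%, 6.77 to 18.1) and 16 of 161 at P7 (9.94%, 5.79 to 15.6). In other cells the shares were 8.76% and 9.21%. Without thinning they were 33.3% and 28.5% of macrophages. Mki67, the proliferation antigen gene, had a UMI in 24 of 141 and 31 of 172 macrophages, and its level was 86.8 and 61.5 CPM (log2 ratio -0.50, -0.92 to -0.08). Of 6 tested G2/M genes 1 was higher at P7, beside 10.2% of all tested genes. That was the mitotic kinase gene Cdk1 (log2 ratio 1.53), which was at 0.89 without mixed cells.

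MHC class II RNA lay mostly in a small minority of the macrophages. Summed over 11 class II genes, 124 of 141 macrophages at P1 and 142 of 172 at P7 had 0 UMIs, and 10 and 9 cells had 1 to 4. The 7 cells at P1 with 5 or more held 26 to 407 UMIs each (median 77), and the 21 at P7 held 5 to 312 (median 42). These cells held 98.1% and 99.4% of the class II UMIs of all macrophages. They were 4.96% of macrophages at P1 (2.02 to 9.96) and 12.2% at P7 (7.72 to 18.1), a log2 ratio of 1.30 (0.01 to 2.78). Among other cells, 4 of 12578 at P1 and 0 of 12141 at P7 had 5 or more, and a floor of 3 counts allows a share of up to 0.0247% at P7. The limit of 5 UMIs was chosen after the values were seen, and the log2 ratio was 0.78 (-0.37 to 2.03) with 3 UMIs and 1.08 (-0.25 to 2.58) with 10.

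Since so few cells carried these genes, their summed level depended on single cells. The sum was 810 CPM at P1 and 1187 at P7 (log2 ratio 0.55, 0.44 to 0.67), but 1 cell held 40.7% of the P1 UMIs, and without the highest cell of each library the log2 ratio was 1.01. With cells weighted equally it was -0.11. Of the 4 tested members, Cd74 had 424 and 601 CPM (log2 ratio 0.50), RT1-Da 190 and 286 (0.59), RT1-Ba 72.2 and 127 (0.82) and RT1-Db1 118 and 141 (0.26), none past 2-fold. That count of 0 was 2 without the highest cell, 2 without mixed cells, 3 under the 10% mitochondrial limit and 4 with 3 marker genes required. Ciita, the master regulator of class II transcription, was at 0 UMIs at P1 and 1 at P7.

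The cells with 5 or more class II UMIs differed from those with none in other genes too. Outside the class II list, 5 of 2455 genes (0.204%) were at least 4-fold higher in them in both libraries and 24 (0.978%) at least 4-fold lower. The 5 were Hopx, Srgn, Glipr1, LOC100910270 and Lyz2, so the count includes 1 gene of the rule. These 5 and the lower genes below were named after their values were seen. Hopx, a homeodomain cofactor gene, had 393 CPM in the class II cells at P1 against 34.1 in the cells without, and 463 against 23.9 at P7, where 1 cell held 49 of its 94 UMIs. Srgn, the gene of the granule proteoglycan serglycin, had 491 against 88.6 CPM at P1 and 128 against 24.8 at P7. Lyz2 is a gene of the rule, so its values, also those in the plot of single cells, are a description only. Lyz2 had 10713 CPM in the class II cells at P1 against 1535 in the cells without, and 14673 against 1705 at P7. Per cell, Lyz2 ranged from 3435 to 15618 CPM in the 7 cells at P1 and from 3228 to 37410 in the 21 at P7, while the cells without had medians of 1003 and 988 CPM and highest values of 15457 and 18358. Every class II cell had Lyz2, and 11 and 19 of the cells without had no UMI of it.

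**Figure D5:**
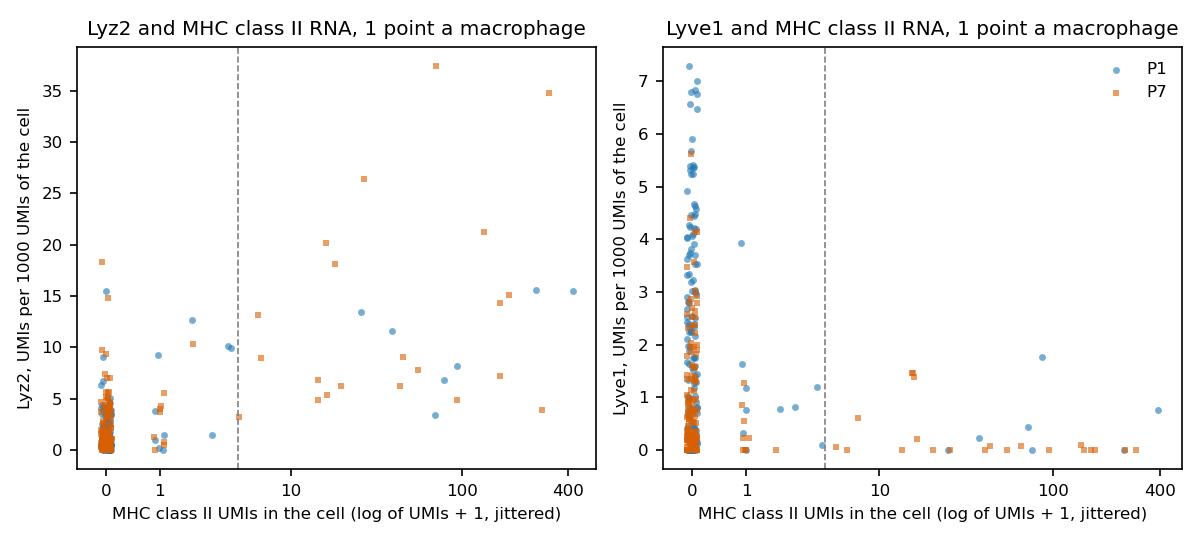
Each point is 1 macrophage of the P1 (circles) or P7 (squares) library, plotted by its class II UMIs (log scale of UMIs + 1, jittered) and by its Lyz2 (left) or Lyve1 (right) UMIs per 1000 UMIs of the cell, and the dashed line marks the limit of 5 UMIs. The 7 and 21 cells to the right of it all carry Lyz2, and Lyve1 is at 0 in 3 and 12 of them.

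Some resident scavenger genes were lower in the class II cells. Lyve1 had 531 CPM in them at P1 against 2339 in the cells without, and 148 against 786 at P7 (log2 ratios -2.14 and -2.41). Lyve1 was at 0 in 3 of the 7 and 12 of the 21 class II cells, and in 12 of the 124 and 34 of the 142 cells without. Cd163 was at 0 in 5 of 7 and 19 of 21, with log2 ratios of -2.39 and -4.00. Fcgrt, the neonatal Fc receptor gene, had log2 ratios of -2.23 and -2.40, and Fcna, a ficolin gene, of -2.81 and -2.12. For Mrc1 they were -1.64 and -1.61, for Hmox1 -2.44 and -1.95 and for Pf4 -1.09 and -1.31, smaller than 4-fold in at least 1 library. Others lay nearer to 0, such as Folr2 (-0.14 and -0.55), Dab2 (-0.93 and -0.83) and Clec10a (0.18 and -0.37).

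Adgre1, which encodes the macrophage antigen F4/80 and is not in the rule, was at 118 CPM in the class II cells and 117 in the cells without at P1, and at 153 and 139 at P7. Of the genes of the rule, given as a description, C1qa was at 4010.1 CPM in them and 5273 in the cells without at P1, and at 1769 and 2326 at P7, and Csf1r was at 983 and 1139 CPM at P1 and at 774 and 1203 at P7. Xcr1, Clec9a and Ccr7 had no UMI in any macrophage. Itgax had 1 UMI in the 7 cells at P1 and 11 in the 21 at P7, against 9 and 3 in the cells without. Fcnb, a ficolin gene of the neutrophil list that monocytes also express, had 6 of its 7 UMIs at P1 and 48 of its 48 at P7 in the class II cells, 33 of the latter in 1 cell. The actin regulator gene Coro1a (log2 ratios 1.53 and 2.09) and the interferon gamma receptor gene Ifngr1 (1.28 and 1.25) were more abundant in them in both libraries, short of 4-fold in at least 1.

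Other measures moved with this split. Of the class II cells 0 at P1 and 2 at P7 were mixed cells, against 28 and 63 of the cells without, and mesenchymal genes such as Otor (log2 ratios -3.91 and -4.45) and Crym (-3.73 and -3.38) were among the 24 lower genes. Called doublets numbered 0 and 1 in the class II cells and 20 and 18 in the cells without. The median depth was 7729 UMIs against 7834.5 at P1 and 9758 against 7097 at P7. The part of the mixed cells in these ratios was not tested.

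Within the macrophages without class II UMIs the falls with age were much as in all macrophages. Lyve1 went from 2339 to 786 CPM (log2 ratio -1.57, -1.69 to -1.46), F13a1 from 581 to 120.3 (-2.27), Cxcl2 from 546 to 18.6 (-4.88) and Ccl3 from 975 to 156 (-2.65). Cd163 lay at -1.13, and Folr2 at -0.93 was short of 2-fold. Lyz2, a gene of the rule given as a description only, had a log2 ratio of 0.81 over all macrophages. In these cells it had 1535 and 1705 CPM, a log2 ratio of 0.15 (0.06 to 0.25). The sum of the scavenger list had a log2 ratio of -0.72 in them.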

How the data were processed

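Each age was 1 library. The UMI count matrices deposited by the authors were made with Cell Ranger 3.1.0 (per the file headers), and the submitters' processing notes name bcl2fastq, Seurat 3.1.1 and the rat build rn6. The counts were raw, over 32623 genes, with no cell annotation used here. Barcodes with over 500 and under 5000 genes and under 25% mitochondrial UMIs were kept, and doublets were called but kept (Scrublet in scanpy 1.11.5, seed 11). Other cells were kept cells with at most 1 of the 6 marker genes. UMIs were summed over macrophages per library and scaled to 1000000 (CPM). Genes with at least 50 CPM and 20 UMIs in either library were compared, at 2-fold between ages (4-fold against other cells), as ratios with exact conditional binomial intervals at 95% and a count of 0 taken as 3. Shares had Clopper-Pearson intervals. Intervals cover counting error only, since each age is 1 pool. Free RNA, not corrected for, and RNA of neighbouring cells can raise genes of other classes. Detection was compared after thinning to 2000 UMIs. The ratio step was tested on simulated counts drawn from the summed P1 macrophage profile. These hold no variation between cells, so the simulation does not cover it. Genes named were members of 38 lists, the 10 largest changes each way, and the 25 genes with the largest contrast to other cells. The changes were among genes at least as high in macrophages as in other cells, in the library with the higher macrophage level. The members and lists were chosen with earlier results of these data known. Python 3.11.15, numpy 2.4.6, scipy 1.17.1, pandas 2.3.3 and matplotlib 3.10.9 were used. Alternatives covered the rule, barcode limits, doublets, mixed cells, scaling, the minimum level and a pseudocount. Values of 1 tested gene of the scavenger list are not reported here, although its list's counts and sums include it.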

Additional observations from a re-analysis of the deposited data

Results flagged for a closer look

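Barcodes that met the marker rule but lay outside the limits on genes or mitochondrial UMIs were set apart from the analysis, and they were far more frequent at P7. They numbered 6 of 147 at P1 (4.08%) and 88 of 260 at P7 (33.8%), whereas 9.16% and 13.2% of all barcodes lay outside the limits. Of the 88 at P7, 77 were over the mitochondrial limit, 27 had too few genes and 2 too many, and the median barcode had 1782.5 UMIs, 642 genes and 34.8% mitochondrial UMIs. With mitochondrial genes left out of the total, the 88 barcodes had 10480 CPM of the identity list against 12105 in the P7 macrophages, and 13697 against 9345 CPM of the scavenger list. Mrc1 had 2558 against 1170 CPM in them, and Lyve1 1181 against 755. MHC class II cells were 1 of the 88 (1.14%), against 12.2% of the P7 macrophages. The 6 barcodes at P1 differed from these, with 3863 CPM of the identity list against 13836 in the P1 macrophages and 3298 against 15819 CPM of the scavenger list, and 1 of the 6 was a class II cell.

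At P7, 4 of the 39 kept cells with 3 of the marker genes (10.3%) had 5 or more MHC class II UMIs although they were not members. At P1 there were 3 of 20. C1qa was counted at 86.5 CPM in the 39 cells at P7 on the same scale, against 2487 in the macrophages. As C1qa is a gene of the rule, this difference follows in part from the choice of cells and is a description only.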

How the results depend on the processing

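No paired analysis was possible because each age is 1 library, and no replicate could be left out. The causes of the shifts below were not tested. The scaling to macrophage-enriched genes, the removal of the highest cell, the restriction to cells without class II UMIs and the removal of the barcode limits were chosen after seeing the data. The log2 ratio of the scavenger list, -0.81, kept its direction in each alternative computed for it. It was -0.76 with 5 of 6 marker genes required, -0.89 with 3, -1.10 with a mitochondrial limit of 10% and -0.50 without mixed cells. It was -0.69 with cells weighted equally, -0.51 scaled to macrophage-enriched genes and -0.72 in cells without class II UMIs. This ratio was not computed without the mitochondrial or barcode limits. The class II list, 0.55, was 1.28 with 3 marker genes, 1.27 under the 10% limit, 0.97 without mixed cells, 0.84 on the enriched-gene scale and 1.01 without the highest cell, and it turned to -0.11 with cells weighted equally. The lysosome list, -0.15, was -0.19 with 3 marker genes, -0.12 under the 10% limit and -0.080 with equal weights, and it turned to 0.065 without mixed cells and 0.14 on the enriched-gene scale. The share of macrophages, 0.31, was -0.49 under the 10% limit, -0.11 without mixed cells, 0.69 without a mitochondrial limit and 0.78 without limits on barcodes. Of 445 genes past 2-fold, 301 were higher and 144 lower. A minimum of 20 CPM gave 1113 (826 and 287), and 100 CPM gave 196 (115 and 81). Without mixed cells 187 were higher, and on the enriched-gene scale 488 were higher and 74 lower. The 204 genes past 4-fold were 118 at 100 CPM. Without mixed cells, Cd9 (-0.99), Mmp2 (-0.11), Mmp14 (-0.38) and Col9a2 (-0.24) turned negative, and of 87 named genes past 2-fold 23 were under it. Spp1 turned to 0.63 without called doublets and 0.90 under the 10% limit. The dividing share stayed within counting error in its 10 alternatives (-0.93 to 0.23), and the share with class II RNA ranged from 0.78 to 1.16 in its 4, with an interval that included 0 in each. With 1232756 and 1414461 UMIs, genes under about 2 CPM could not be told from 0.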

Other observations

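Counts for groups of genes not described above stand beside the 10.2% of all tested genes that were higher at P7 and the 4.87% that were lower. Of 3 tested interferon-response genes, Ifitm3 (56.0 to 149.9 CPM, log2 ratio 1.42) and Ifi27 (191 to 402 CPM, 1.07) were higher at P7. Both stayed past 2-fold without mixed cells, at 1.11 and 1.27. The interferon list summed to 70.5% of its level in other cells at P1 and 87.7% at P7. Its log2 ratio was 0.77 in macrophages and 0.45 in other cells. Of 5 tested genes of a microglia-like list, Tmem119 (log2 ratio 1.11) and Sparc (1.91) were higher, and Trem2 was at 745 and 615 CPM (-0.28). Without mixed cells Sparc was at 2.02 and Tmem119 at 1.13. The microglia-like list summed to 70.3% of its level in other cells at P1 and 59.9% at P7, with a log2 ratio of 0.82 in macrophages and 1.05 in other cells. Fc receptor genes, which bind antibody, had 0 of 4 tested members past 2-fold, and the axis of CSF1 signalling had 0 of 4. Of 16 tested transcription factor genes Id3 was higher (131 to 587 CPM, 2.17) and Egr2 lower. Without mixed cells Id3 was at 0.66. Matrix genes Mmp2 (1.67) and Mmp14 (1.21), higher at P7 in all macrophages, were not past 2-fold without mixed cells. Of 5 tested monocyte genes S100a4 (-3.14) and Ms4a6a (-1.36) were lower at P7. Among genes of the cell cycle, Mcm6 (-1.32) was lower and Slbp (1.40) higher, of 6 tested S-phase genes.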
